A study of Mus musculus with 4 samples.

Results

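Genes of cholesterol and fatty acid synthesis were examined in LSK cells of the mouse fetal liver. The set was 37 named genes, taken by gene symbol from the deposited table: 17 enzymes of sterol synthesis, 5 regulators of the SREBP pathway, 11 enzymes of fatty acid synthesis, elongation and desaturation, and 4 genes of sterol sensing by LXR and of sterol export. Of these, 36 were found among the 20207 genes of the table, and Hmgcs1 was not analysed here. LSK cells lack lineage markers, carry Sca-1 and Kit, and include the blood stem cells and multipotent progenitors. They were sorted from Brpf1-null and wild-type embryos at E14.5 for RNA-seq, and each RNA sample was a pool of cells of 4 embryos. Brpf1 encodes a chromatin reader that is a scaffold of histone acetyltransferase complexes. The sources used here do not give the deleted part of Brpf1, a Cre line, or the strain and sex of the embryos.

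The study labels 2 Brpf1-null and 2 wild-type samples as 2 pairs, but 0 of the 20207 Brpf1-null values and 0 of the wild-type values differed between the tables of the pairs. Each genotype therefore counts as a single library (n = 1 each), no difference has a replicate check and no p-value is given. The labels say that the pairs were sequenced separately, and which pair the values come from is not known. Values are RPKM, reads per kilobase of gene, scaled to the size of the library, which can be compared between genes as levels per length. The Brpf1-null library held an estimated 22169953 reads and the wild-type library 23576204, read from the spacing of the low values. Folds are followed by their 95% counting interval, from the estimated reads of the gene, which covers counting error only, and not differences between embryos or pools. Brpf1 itself was at 2.15 RPKM in the Brpf1-null library and 2.59 RPKM in the wild-type library, 1.20-fold lower (1.01 to 1.43), and such a summary of all its exons cannot show whether one was deleted. The LSK markers Kit (21.3 RPKM in Brpf1-null, 25.6 RPKM in wild-type) and Cd34 (179 RPKM in Brpf1-null, 117 RPKM in wild-type) were present in both libraries. So were Ly6a, which encodes Sca-1 (9.51 RPKM in Brpf1-null, 10.6 RPKM in wild-type), Flt3, Ptprc and Cd48. Of these 6, 3 were higher and 3 lower in Brpf1-null, and only Cd34 was past 1.5-fold (1.54-fold higher, 1.49 to 1.58). Slamf1 was low, at 0.0335 RPKM in Brpf1-null and 0.566 RPKM in wild-type, 16.9-fold lower (4.36 to 145) on about 2 and 36 reads. Markers of hepatocytes and erythroid cells, types that lie outside the LSK gate, were present as well and were lower in the Brpf1-null library. Which cells these transcripts came from was not tested. The summed level of the 15 hepatocyte markers was 573 RPKM in Brpf1-null and 2185 RPKM in wild-type, and that of the 9 erythroid markers found was 85.2 RPKM in Brpf1-null and 463 RPKM in wild-type. All 14 hepatocyte and 9 erythroid markers that passed the expression filter were at least 1.5-fold lower, and Apob was listed at 0 in the Brpf1-null library.

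Cholesterol is built from acetyl-CoA through mevalonate, farnesyl diphosphate, squalene and lanosterol. When sterols in the endoplasmic reticulum are scarce, SCAP escorts the SREBP transcription factors to the Golgi for cleavage, and they then switch on the genes of sterol and fatty acid synthesis; the INSIG proteins hold the complex back when sterols are abundant. Oxysterols, in turn, activate the nuclear receptors LXR alpha and LXR beta, which raise the ABC transporters that export cholesterol. In mouse blood stem and progenitor cells, cholesterol export by ABCA1 and ABCG1 is known to restrain proliferation.

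Promoter windows from RefSeq (GRCm38.p6), which run from 250 bases before to 50 bases after a gene's start, were available for 29 of the 36 genes. Fdft1, Sqle, Fdps, Fads1, Scd1, Scd2 and Abcg1 had no window, so the motif counts below do not cover them. The CCAAT box, the site of NF-Y, a factor that works with SREBPs at sterol genes, was searched as CCAAT on both strands. It was in the windows of 12 of the 13 sterol enzymes with a window and was missing from that of Acat2. By window it was in 75% of 16 windows of sterol enzymes, against 38.1% of the 8440 windows of all genes that passed the expression filter. The canonical sterol element, spelled TCACNCCAC, was in 0 of the 39 windows of the set and in 1.14% of the 8440 windows; this says only that these letters are not in these windows. The palindromic E-box CACGTG was in 20.5% of the 39 windows, against 10.5%, and the GC box GGGCGG in 69.2%, against 62.6%. All motifs were searched on both strands, none of them contains another, and a match is a description of the sequence, not a bound site. The 150 bases before the start are shown for the pair of sterol enzymes with the highest log2 change, Acat2 and Mvd, and for 2 that were lower, Idi1 and Sc5d, each 5′ to 3′ on the strand of the gene, with CCAAT or its complement ATTGG in capitals.
Acat2, chr17:12960726-12960875, minus strand: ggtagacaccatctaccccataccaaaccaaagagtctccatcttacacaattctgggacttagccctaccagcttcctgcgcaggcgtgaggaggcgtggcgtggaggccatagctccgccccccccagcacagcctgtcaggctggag
Mvd, chr8:122443423-122443572, minus strand: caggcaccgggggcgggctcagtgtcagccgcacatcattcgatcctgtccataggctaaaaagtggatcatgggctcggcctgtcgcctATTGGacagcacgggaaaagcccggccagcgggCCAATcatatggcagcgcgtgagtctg
Idi1, chr13:8885456-8885605, plus strand: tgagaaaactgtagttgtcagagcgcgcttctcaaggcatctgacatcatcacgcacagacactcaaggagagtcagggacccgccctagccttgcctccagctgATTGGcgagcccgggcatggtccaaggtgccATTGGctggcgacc
Sc5d, chr9:42264301-42264450, minus strand: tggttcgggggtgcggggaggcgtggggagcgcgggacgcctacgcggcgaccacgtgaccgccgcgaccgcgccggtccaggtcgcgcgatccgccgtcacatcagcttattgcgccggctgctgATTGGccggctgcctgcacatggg
Mvd, which was higher in the Brpf1-null library, and Idi1, which was lower, each hold 2 copies. The box was in 12 of the 13 sterol enzymes with a window, and a relation to the change was not tested.

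The comparison asks which of these transcripts differed between Brpf1-null and wild-type LSK cells. Most did so by little. Changes are log2 ratios of RPKM, Brpf1-null over wild-type, taken after a pseudocount of 1 RPKM was added to both, a scale that understates the change of low genes, and a gene was kept where its mean over the libraries was at least 1 RPKM; 33 of the 36 genes were kept, and Hsd17b7, Scd1 and Abca1 were not. Of the 33, 3 were at least 1.5-fold higher on this scale (Acat2, Mvd and Abcg1), 0 were at least 1.5-fold lower and 30 lay within 1.5-fold. That is 9.09% of the set past 1.5-fold, against a background of 23.5% of all 9380 kept genes (14.1% higher and 9.42% lower). With no filter the shares were closer, 11.1% of the 36 genes against 12.5% of all 20207. That background takes in the 10827 genes below the filter, whose changes this scale understates. With a stricter filter, a mean of at least 5 RPKM, the shares were 8% of the set and 23.0% of all genes. With the values of each library centred on their median, which shifts all changes by −0.11, 5 of the 33 were past 1.5-fold, 2 higher and 3 lower, and the share of higher genes among all genes past 1.5-fold was 44.4% in place of 59.9%. The median absolute log2 change was 0.25 in the set and 0.31 over all kept genes. The counting interval excluded a fold of 1 for 23 of the 33 genes (69.7%), 12 higher and 11 lower, against 73.3% of the 9258 kept genes with a read estimate, of which 40.4% were higher and 32.9% lower. At this depth, small differences between 2 libraries exceed counting error for most genes, whatever their function.

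**Figure D1:**
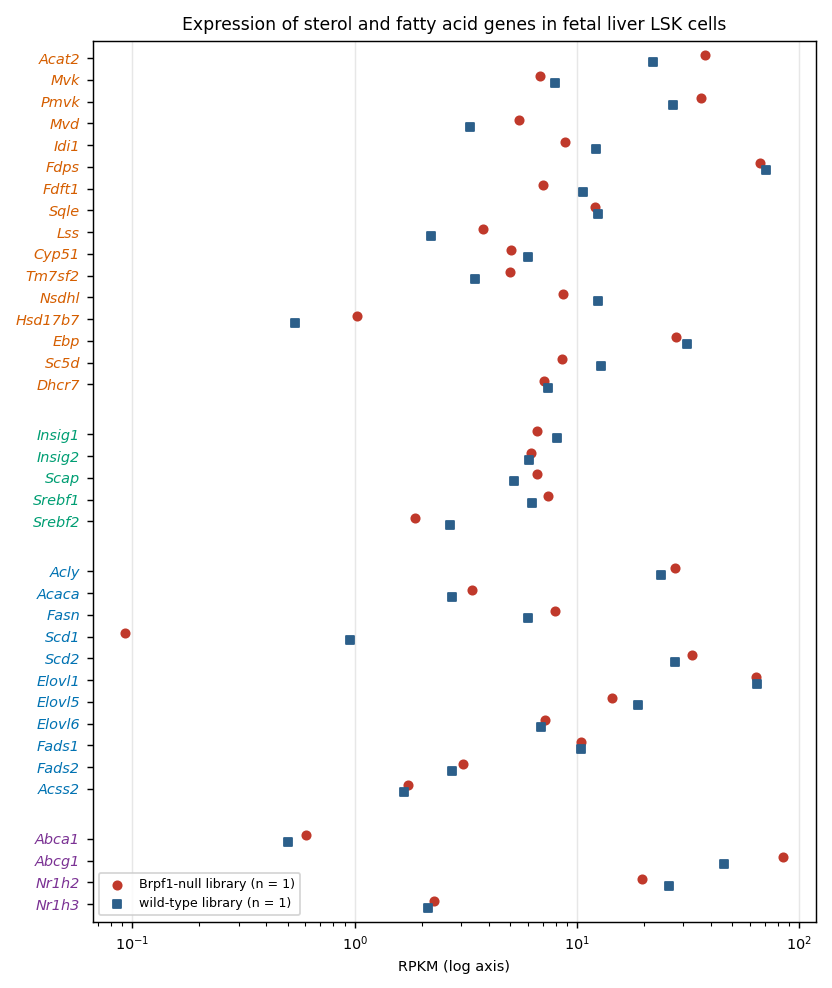
RPKM of the 36 genes in the Brpf1-null library (red circles) and the wild-type library (blue squares), on a log axis, with sterol enzymes in orange, SREBP regulators in green, fatty acid enzymes in blue and LXR and export genes in purple. Most pairs of points lie close together; Scd1, at 0.093 RPKM in Brpf1-null and 0.953 RPKM in wild-type, stands apart.

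The first steps of sterol synthesis, by which acetyl-CoA becomes farnesyl diphosphate, included the sterol enzymes with the highest log2 changes and the most abundant one, Fdps. Acat2, the cytosolic thiolase that joins acetyl-CoA units at the entry of the pathway, was at 37.8 RPKM in the Brpf1-null library and 21.9 RPKM in the wild-type library, 1.73-fold higher (1.60 to 1.86). Its log2 change was 0.76, and between 0.65 and 0.75 under centring, quantile normalization and removal of the GC trend described below. Acat3, a mouse paralog next to Acat2, was at 0.0226 RPKM in Brpf1-null and 0.360 RPKM in wild-type, on about 1 and 18 reads, and how reads were shared between the copies was not tested. Mvk, mevalonate kinase, was at 6.78 RPKM in Brpf1-null and 7.95 RPKM in wild-type, a difference not detectable at this depth (1.17-fold lower, 0.987 to 1.39). Pmvk, which adds the next phosphate, was at 36.0 RPKM in Brpf1-null and 27.1 RPKM in wild-type, 1.33-fold higher (1.21 to 1.46).

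Mvd, the decarboxylase that yields isopentenyl diphosphate, was at 5.49 RPKM in Brpf1-null and 3.29 RPKM in wild-type, 1.67-fold higher (1.34 to 2.09) on about 214 and 136 reads. With the pseudocount its log2 change was 0.60, just past the 1.5-fold line, and it lay inside the line after centring (0.49) and after removal of the GC trend (0.39). Idi1, the isomerase that makes the allylic partner of this unit, was at 8.81 RPKM in Brpf1-null and 12.2 RPKM in wild-type, 1.38-fold lower (1.24 to 1.54). Fdps, which condenses these units into farnesyl diphosphate, was the highest of the sterol enzymes in both libraries, at 66.5 RPKM in Brpf1-null and 71.0 RPKM in wild-type. Neighbouring enzymes of the mevalonate route thus stood on both sides of 0, with 3 of the 6 kept genes above it and 3 below. Their summed level was 161 RPKM in Brpf1-null and 143 RPKM in wild-type. The higher sum came mainly from Acat2 (37.8 RPKM in Brpf1-null, 21.9 RPKM in wild-type) and Pmvk (36.0 RPKM in Brpf1-null, 27.1 RPKM in wild-type), while Mvk, Idi1 and Fdps were lower.

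From squalene to cholesterol, 7 of 9 kept enzymes had a log2 change below 0, all within 1.5-fold on the pseudocount scale. Over all genes, 4303 of the 9380 kept were below 0. Sc5d, the sterol desaturase near the end of the pathway, was at 8.52 RPKM in Brpf1-null and 12.9 RPKM in wild-type, 1.51-fold lower (1.39 to 1.64). Fdft1, squalene synthase, which commits farnesyl diphosphate to sterols, was at 7.01 RPKM in Brpf1-null and 10.6 RPKM in wild-type, 1.51-fold lower (1.36 to 1.68). An exon of Fdft1 shares 774 bases with the cathepsin gene Ctsb on the opposite strand in GENCODE M21. Ctsb was at 66.3 RPKM in Brpf1-null and 89.8 RPKM in wild-type, and strand use in the counting is not given in the sources used here, so the Fdft1 values are uncertain. Nsdhl, a dehydrogenase that helps to remove the methyl groups of lanosterol, was at 8.66 RPKM in Brpf1-null and 12.5 RPKM in wild-type, 1.44-fold lower (1.27 to 1.63).

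Cyp51, the lanosterol demethylase, was at 5.06 RPKM in Brpf1-null and 6.04 RPKM in wild-type, 1.19-fold lower (1.05 to 1.36). Ebp, the isomerase of the sterol ring, was at 27.7 RPKM in Brpf1-null and 31.1 RPKM in wild-type. Sqle, squalene epoxidase and a rate-limiting step, was at 12.1 RPKM in Brpf1-null and 12.5 RPKM in wild-type. Dhcr7, the reductase of the last step, was at 7.08 RPKM in Brpf1-null and 7.39 RPKM in wild-type. Both intervals included 1 (Sqle 1.03-fold lower, 0.933 to 1.14; Dhcr7 1.04-fold lower, 0.915 to 1.19), so the regulated epoxidase and the final reductase did not differ detectably at this depth.

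Against these, Lss, which closes the sterol rings to form lanosterol, was at 3.77 RPKM in Brpf1-null and 2.21 RPKM in wild-type, 1.71-fold higher (1.45 to 2.01), and just inside 1.5-fold with the pseudocount (log2 change 0.57). Tm7sf2, a sterol reductase, was at 4.99 RPKM in Brpf1-null and 3.46 RPKM in wild-type, 1.44-fold higher (1.14 to 1.84). Its annotated exons share 532 bases with Vps51 on the same strand, for which no value was found under that symbol. Hsd17b7, the ketone reductase that acts beside Nsdhl and the lowest of the sterol enzymes, was at 1.02 RPKM in Brpf1-null and 0.536 RPKM in wild-type, 1.91-fold higher (1.38 to 2.70) on about 105 and 58 reads, below the filter. The summed level from squalene to cholesterol was 85.9 RPKM in Brpf1-null and 99.2 RPKM in wild-type. Over all 15 kept sterol enzymes 5 were above 0 and 10 below, against 5072 above and 4303 below among all 9380 kept genes. Of the 15, 2 were past 1.5-fold, and the median log2 change was −0.09, against 0.04 over all kept genes. The median was −0.20 after centring, against −0.068 over all kept genes, and −0.16 after removal of the GC trend, against 0.03.

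**Figure D2:**
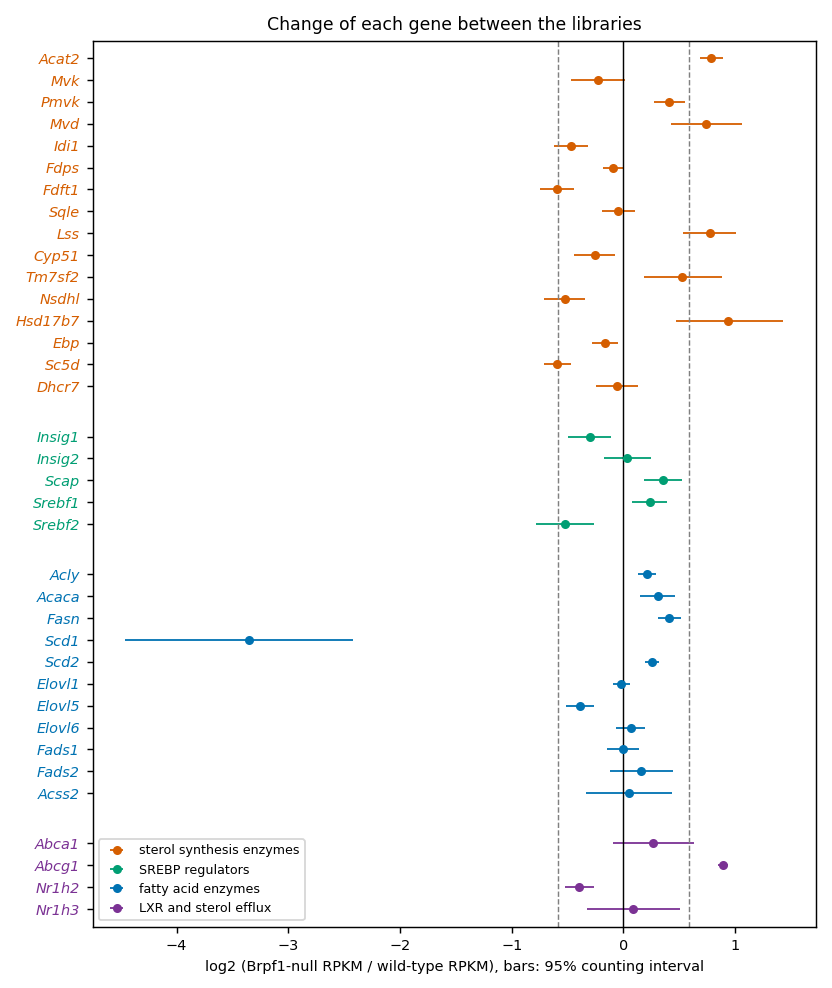
Log2 ratio of Brpf1-null to wild-type RPKM, without a pseudocount, for each of the 36 genes, in the order of the pathway; bars are 95% counting intervals, and the dashed lines mark 1.5-fold either way. Sterol enzymes lie on both sides of 0, from 1.51-fold lower (Sc5d, Fdft1) to 1.91-fold higher (Hsd17b7), and Scd1 lies far to the left with a wide interval.

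The SREBP regulators, which set the output of both arms, lay within 1.5-fold in 5 of 5 genes, with a median log2 change of 0.03. Srebf2, the SREBP gene most tied to sterol synthesis, was at 1.87 RPKM in Brpf1-null and 2.69 RPKM in wild-type, 1.44-fold lower (1.20 to 1.72). Srebf1, whose products favour fatty acid genes, was at 7.40 RPKM in Brpf1-null and 6.27 RPKM in wild-type, 1.18-fold higher (1.06 to 1.31). An exon of Srebf1 shares 109 bases with Rai1 on the opposite strand, and Rai1 was at 3.18 RPKM in Brpf1-null and 1.66 RPKM in wild-type. The SREBP genes therefore stood on opposite sides of 0 in RPKM, while after removal of the GC trend the log2 change was −0.58 for Srebf2 and −0.0032 for Srebf1.

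Scap, the escort of the SREBP precursors, was at 6.63 RPKM in Brpf1-null and 5.19 RPKM in wild-type, 1.28-fold higher (1.14 to 1.44). Insig1, which retains the complex and is itself an SREBP target, was at 6.58 RPKM in Brpf1-null and 8.09 RPKM in wild-type, 1.23-fold lower (1.08 to 1.41). Insig2, which does the same, did not differ detectably, at 6.21 RPKM in Brpf1-null and 6.06 RPKM in wild-type. All but Srebf2 were between 5 and 9 RPKM in both libraries.

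The fatty acid enzymes were also within 1.5-fold in all 10 kept genes; the interval lay above 1 for 4 of them, below 1 for 1 and included 1 for 5, against 40.4% of all kept genes above 1. Acly, which splits citrate to cytosolic acetyl-CoA, was at 27.7 RPKM in Brpf1-null and 23.9 RPKM in wild-type, 1.16-fold higher (1.10 to 1.22). Acaca, the acetyl-CoA carboxylase that makes malonyl-CoA, was at 3.37 RPKM in Brpf1-null and 2.72 RPKM in wild-type, 1.24-fold higher (1.11 to 1.38). Fasn, fatty acid synthase, was at 7.97 RPKM in Brpf1-null and 6.00 RPKM in wild-type, 1.33-fold higher (1.24 to 1.43). The log2 changes of these 3 genes stayed above 0 under centring, quantile normalization and removal of the GC trend, at 0.09 to 0.25. Acss2, which makes acetyl-CoA from acetate, was at 1.73 RPKM in Brpf1-null and 1.67 RPKM in wild-type, with an interval that included 1. An exon of Acss2 shares 163 bases with Gss on the opposite strand. Gss was at 10.4 RPKM in Brpf1-null and 15.7 RPKM in wild-type, so the Acss2 values are uncertain for the same reason as those of Fdft1.

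Among elongases, Elovl1, which extends long saturated chains, was the most abundant enzyme of this arm and nearly equal, at 63.6 RPKM in Brpf1-null and 64.4 RPKM in wild-type. Elovl5, which extends polyunsaturated chains, was at 14.3 RPKM in Brpf1-null and 18.8 RPKM in wild-type, 1.31-fold lower (1.20 to 1.43). Elovl6, which extends palmitate to stearate, was at 7.18 RPKM in Brpf1-null and 6.86 RPKM in wild-type. The desaturases of polyunsaturated chains, Fads1 (10.4 RPKM in Brpf1-null, 10.4 RPKM in wild-type) and Fads2 (3.07 RPKM in Brpf1-null, 2.75 RPKM in wild-type), had intervals that included 1, as did Elovl1 and Elovl6. The median log2 change of the arm was 0.09, against 0.04 over all kept genes, and −0.023 after centring, against −0.068.

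The stearoyl-CoA desaturases Scd1 and Scd2, paralogs that both make monounsaturated chains, differed from each other. Scd2 was at 32.9 RPKM in Brpf1-null and 27.6 RPKM in wild-type, 1.19-fold higher (1.14 to 1.25). Scd1, the main desaturase of adult liver, was at 0.0930 RPKM in Brpf1-null and 0.953 RPKM in wild-type, 10.2-fold lower (5.37 to 22.0) on about 10 and 109 reads. It was below the filter, so it is not among the 33 genes counted above, and its log2 change with the pseudocount was −0.84. Scd3, another paralog, was at 0.803 RPKM in Brpf1-null and 0.438 RPKM in wild-type. The hepatocyte markers were lower in the same library, 3.82-fold in summed RPKM, with 15 of 15 below their wild-type values, and their part in the Scd1 value was not tested. In bulk RNA, fewer cells of a type and less RNA per cell cannot be told apart.

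Of the LXR genes and the sterol exporters, 1 was the transcript with the highest level of the set in the Brpf1-null library. Abcg1, which exports cholesterol to high-density lipoprotein, was at 84.8 RPKM in Brpf1-null and 45.8 RPKM in wild-type, 1.85-fold higher (1.79 to 1.91). With about 10967 and 6301 reads it had the narrowest interval of the 36 genes relative to its fold, and its log2 change stayed between 0.76 and 0.91 under centring, quantile normalization and removal of the GC trend. Abca1, which loads cholesterol onto apolipoprotein acceptors, was low, at 0.605 RPKM in Brpf1-null and 0.503 RPKM in wild-type, with an interval that included 1 (1.20-fold higher, 0.936 to 1.55). Nr1h2, which encodes LXR beta, was at 19.6 RPKM in Brpf1-null and 25.8 RPKM in wild-type, 1.31-fold lower (1.20 to 1.44). Nr1h3, which encodes LXR alpha, was at 2.28 RPKM in Brpf1-null and 2.14 RPKM in wild-type, and its interval included 1. Monocyte and macrophage genes, a lineage in which Abcg1 is also well expressed, did not move one way: of 8 kept macrophage markers, 2 were higher and 3 lower by 1.5-fold, and by the counting interval 2 were higher and 6 lower. Csf1r was at 28.8 RPKM in Brpf1-null and 8.31 RPKM in wild-type, while Timd4 was at 0.496 RPKM in Brpf1-null and 2.60 RPKM in wild-type. The summed level of the 10 macrophage markers found was 95.2 RPKM in Brpf1-null and 77.1 RPKM in wild-type, with none listed at 0. Of these 10, 8 were lower in Brpf1-null, and the higher sum came from Csf1r and from Cd68, at 41.8 RPKM in Brpf1-null and 26.9 RPKM in wild-type. Their part in the Abcg1 value was not tested.

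**Figure D3:**
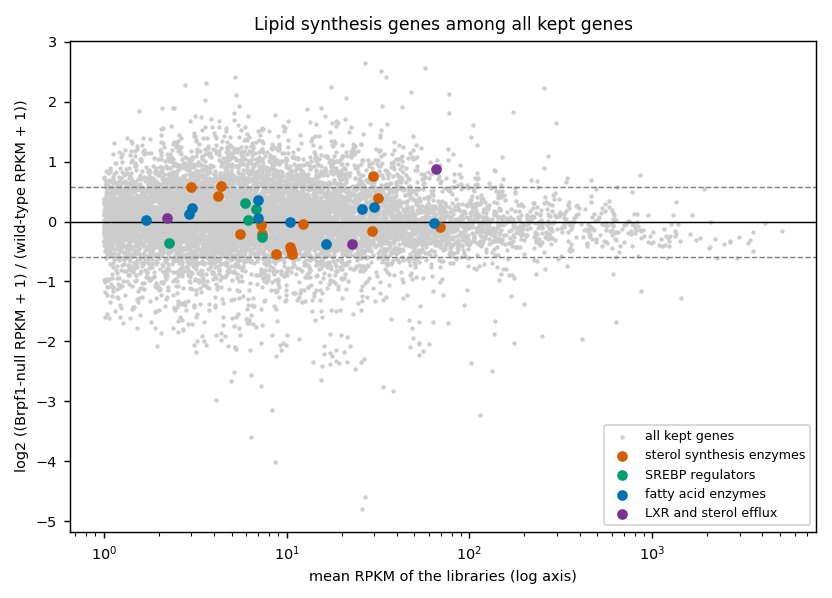
Log2 change with a pseudocount of 1 RPKM against the mean RPKM of the libraries (log axis) for the 9380 kept genes (grey) and the 33 kept genes of the set (coloured); dashed lines mark 1.5-fold. Acat2, Mvd and Abcg1 lie above the upper line, and no gene of the set lies below the lower one.

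Across all kept genes the log2 change went with the GC content of the transcript (Spearman rho 0.29 over 9258 genes, which share the same libraries), from a median of −0.17 in the 926 genes with the lowest GC content to 0.25 in the 926 with the highest. The sterol enzymes varied along the same axis, with rho 0.53 over 15 genes, given as a description. The lower enzymes Idi1, Sc5d and Nsdhl had transcripts of 41.9%, 42.9% and 45.8% GC, and the higher ones Pmvk, Tm7sf2 and Mvd 57.0%, 56.5% and 59.3%. Mvk, with the highest GC content of the kept sterol enzymes at 59.6%, and Fdps, at 54.5%, went against this, with log2 changes of −0.20 and −0.09. Acat2, at 49.6% GC, and Abcg1, at 52.7%, lay well above the median of genes of like GC content, and Fdft1, at 51.8%, below it. With the trend removed, 4 of the 33 genes were past 1.5-fold, Acat2 and Abcg1 higher and Fdft1 and Nr1h2 lower, against 21.4% of all genes.

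**Figure D4:**
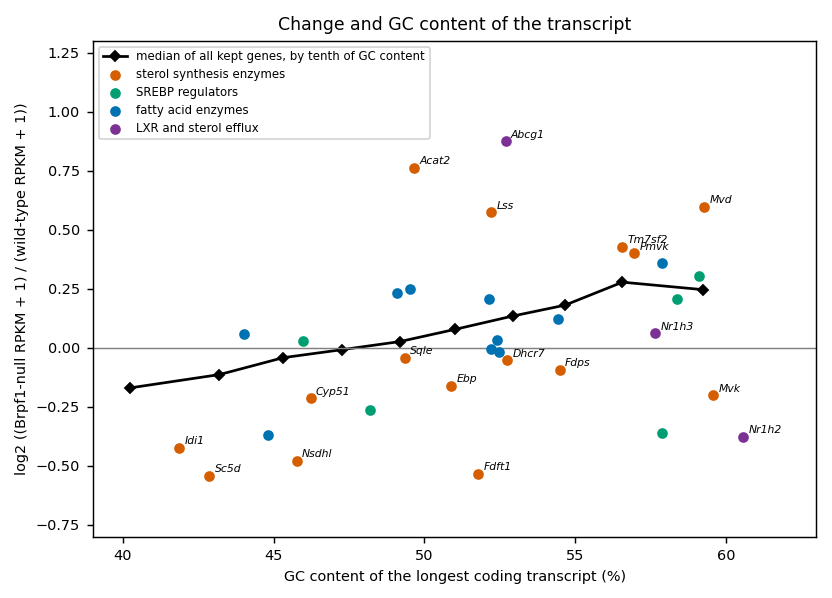
Log2 change against the GC content of the longest coding transcript for the 33 kept genes, with the median of all kept genes in 10 bins of GC content as a black line. The line runs from −0.17 in the lowest bin to 0.25 in the highest, and the sterol enzymes Idi1, Sc5d and Nsdhl lie at low GC content and low change, Mvd, Pmvk and Tm7sf2 at high GC content and higher change, while Mvk lies at high GC content with a change below 0.

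Further genes of these pathways also stood on both sides. Among 11 other genes of sterol and isoprenoid synthesis, 2 were higher and 0 lower by 1.5-fold. Both act on isoprenoids outside the sterol branch: Fnta, a subunit of protein prenyltransferases, was at 12.7 RPKM in Brpf1-null and 7.80 RPKM in wild-type, and Coq2, of ubiquinone synthesis, was at 16.9 RPKM in Brpf1-null and 10.8 RPKM in wild-type. Sc4mol, the methyl sterol oxidase that acts with Nsdhl, was at 10.2 RPKM in Brpf1-null and 13.3 RPKM in wild-type, 1.31-fold lower (1.16 to 1.48). Of 8 genes of SREBP cleavage and sterol sensing, 2 were higher and 0 lower. Mbtps1, the Golgi protease that makes the first cut in SREBPs, was at 13.4 RPKM in Brpf1-null and 7.56 RPKM in wild-type, 1.77-fold higher (1.62 to 1.94). Erlin1, a membrane protein of the endoplasmic reticulum that restrains SREBP activation, was at 8.65 RPKM in Brpf1-null and 5.19 RPKM in wild-type, 1.67-fold higher (1.47 to 1.90), while its partner Erlin2 was at 3.75 RPKM in Brpf1-null and 5.19 RPKM in wild-type, 1.38-fold lower (1.22 to 1.58).

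Of 14 kept genes of sterol uptake, transport and storage, 1 was higher and 2 lower by 1.5-fold. Osbp, an oxysterol-binding lipid exchanger, was at 2.89 RPKM in Brpf1-null and 1.48 RPKM in wild-type, 1.96-fold higher (1.61 to 2.40). Apoe, a lipoprotein component that liver cells and macrophages secrete, was at 11.2 RPKM in Brpf1-null and 34.7 RPKM in wild-type, 3.10-fold lower (2.75 to 3.50). Lcat, the plasma cholesterol acyltransferase made by hepatocytes, was at 1.03 RPKM in Brpf1-null and 3.49 RPKM in wild-type, 3.39-fold lower (2.22 to 5.14). These 2 genes were lower beside the hepatocyte markers, whose part was not tested.

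Of 14 other kept genes of fatty acid synthesis, 3 were higher and 0 lower by 1.5-fold. Mcat was at 8.48 RPKM in Brpf1-null and 4.47 RPKM in wild-type, 1.90-fold higher (1.60 to 2.27), and Oxsm at 1.5 RPKM in Brpf1-null and 0.541 RPKM in wild-type, 2.77-fold higher (1.97 to 3.95); both belong to the separate fatty acid synthesis of mitochondria. Acsl5, which activates fatty acids with coenzyme A, was at 37.2 RPKM in Brpf1-null and 23.1 RPKM in wild-type. Elovl2, an elongase that was below the filter and is named after its value was seen, was at 0.305 RPKM in Brpf1-null and 1.54 RPKM in wild-type, 5.06-fold lower (3.31 to 8.02).

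Of 14 kept genes of glycerolipid synthesis, 0 were higher and 1 lower by 1.5-fold. That gene, Cept1, the last enzyme of choline and ethanolamine phospholipid synthesis, was at 7.25 RPKM in Brpf1-null and 12.1 RPKM in wild-type, 1.67-fold lower (1.49 to 1.88). Chka, choline kinase, was at 5.60 RPKM in Brpf1-null and 3.49 RPKM in wild-type, and Agpat3, an acyltransferase of phosphatidic acid synthesis, at 2.56 RPKM in Brpf1-null and 1.43 RPKM in wild-type, both within 1.5-fold with the pseudocount. Of 17 kept genes of fatty acid oxidation, 2 were higher and 0 lower. Slc25a20, the carnitine-acylcarnitine carrier of mitochondria, was at 15.0 RPKM in Brpf1-null and 7.61 RPKM in wild-type, 1.97-fold higher (1.72 to 2.26), and Acaa1a, a peroxisomal thiolase, was at 9.77 RPKM in Brpf1-null and 6.01 RPKM in wild-type. Hadha, a subunit of the mitochondrial trifunctional protein, was at 17.6 RPKM in Brpf1-null and 11.5 RPKM in wild-type, 1.53-fold higher (1.41 to 1.65), and just within 1.5-fold with the pseudocount. The medians of these 6 lists ran from −0.024 (SREBP cleavage and sterol sensing) to 0.17 (other fatty acid synthesis genes), against 0.04 over all kept genes. After centring they ran from −0.13 to 0.06, against −0.068. Between 7.14% and 25% of each list lay past 1.5-fold, against the background of 23.5%.

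**Figure D5:**
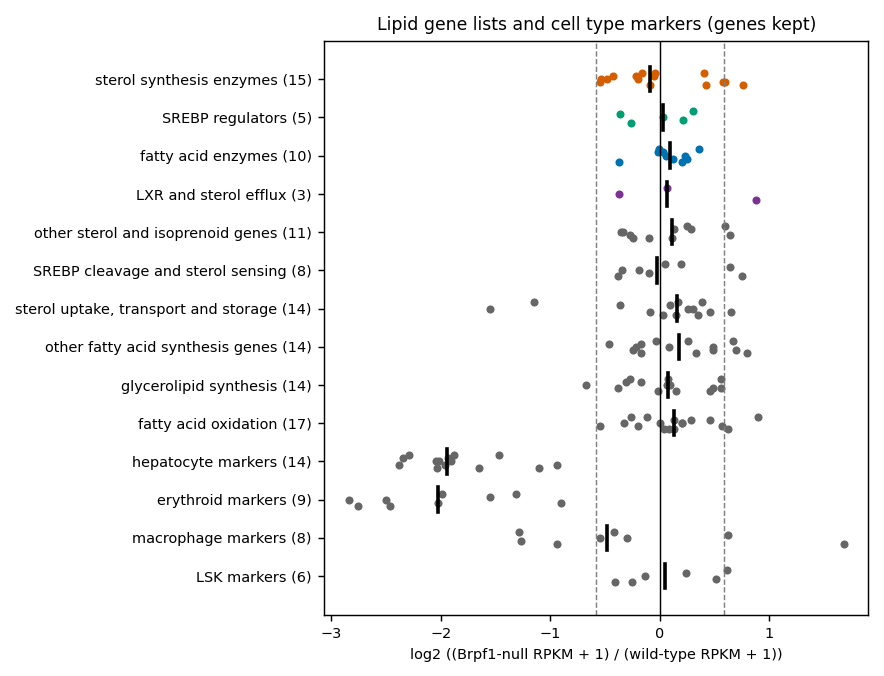
Log2 change of each kept gene by list, with the number of kept genes in brackets, the list median as a black bar and 1.5-fold as dashed lines. The lipid lists are centred near 0 with most genes inside the lines; Apoe and Lcat lie to the left of the transport list, beside the hepatocyte and erythroid markers, whose medians were −1.95 and −2.02.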

How the data were processed

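Per the labels' protocols, RNA of about 10000 sorted cells was used for oligo-dT-primed libraries. TopHat and mm9 are named in the submitters' processing notes; the sources used here name no annotation, counter or filter. Of the tables that the authors deposited, the first holds RPKM and the second FPKM, per the file headers. Both also hold a deposited fold change, which is the ratio with the wild-type value on top, and its log2; all 12624 such ratios matched the deposited values within 0.001 and served no other purpose. The values of the 2 tables were identical, so each genotype had 1 library, and the limma test foreseen for tables that differ was not made.

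Library sizes were found as those at which most values under 20 reads became whole reads, with the longest coding transcript of GENCODE M21 as length: 55.8% of 2265 Brpf1-null values and 53.6% of 2230 wild-type values were whole within 0.1 read, against 24.1% and 21.3% with sizes 5% off. Symbols matched for 98.1% of genes. Read numbers are therefore approximate. Intervals are exact Clopper-Pearson intervals of the part of a gene's reads that came from the Brpf1-null library, with library size taken into account (scipy 1.17.1); reads copied by PCR are not independent. The method was tested on simulated data made with the same transcript lengths, so that test cannot show errors from wrong lengths. The GC trend was removed by lowess with a span of 0.3 (statsmodels 0.14.6). Named were all genes of the set, Brpf1, and up to 3 kept genes per further list by largest absolute log2 change. Genes outside this rule (Acat3, Scd3, Ctsb, Rai1, Gss, Elovl2 and some list members) were picked with their values in view. Vps51 was named for its shared exon bases only, as no value was found for it. The set and the lists were chosen with earlier results of these data known.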

Additional observations from a re-analysis of the deposited data

How the results depend on the processing

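No paired analysis was possible because the tables of the 2 pairs held the same values, so neither the fit with the pair as a block nor leaving out a replicate was run, and no result has a replicate check. The 3 genes of the set past 1.5-fold became 6 with a pseudocount of 0.1 RPKM (Fdft1 and Sc5d lower and Lss higher were added) and 5 after centring on the median (Acat2 and Abcg1 higher, Fdft1, Nsdhl and Sc5d lower); over all genes the share past 1.5-fold was 31.0% and 23.1% under these settings, and 10.1% with a pseudocount of 5 RPKM. Under quantile normalization, removal of the GC trend and no filter it was 4 genes. With no filter that was 11.1% of the set against 12.5% of all 20207 genes. That background takes in the 10827 genes below the filter, whose changes the pseudocount understates. The set was at 12.1% against 23.1% under quantile normalization, and at 8% against 23.0% with a stricter filter (mean of 5 RPKM or more). The count was 2, Acat2 and Abcg1, with a pseudocount of 5 RPKM or the stricter filter, and these genes were past 1.5-fold under all 7 alternatives. A change of filter alters only which genes are counted and leaves the log2 change of each gene as it was. The median of the fatty acid enzymes was 0.09 and turned to −0.023 after centring, which shifts every gene by the same amount. That shift took the median over all kept genes from 0.04 to −0.068. The median of the sterol enzymes was below 0 under all 7 alternatives, from −0.20 to −0.07. Of 226 values of single genes under the alternatives, 202 moved by less than the counting interval. The 202 include the 36 values with no filter and the 25 with the stricter filter, which could not move. The sign changed under at least 1 alternative for 7 of 36 genes, none of them among the 3 past 1.5-fold. Depth limits Scd1, Hsd17b7, Nr1h3, Acss2 and Abca1 most, with about 10 to 138 reads per library.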

Other observations

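Paralogs and partners of the set differed in level as well as in change, and the pairs given here were chosen after their values were seen. Scd2 was the abundant stearoyl-CoA desaturase in both libraries, while Scd4 was at 0.132 RPKM in Brpf1-null and 0.124 RPKM in wild-type. Of the receptors that sense oxysterols, Nr1h2 was above Nr1h3 in both libraries (19.6 and 2.28 RPKM in Brpf1-null, 25.8 and 2.14 RPKM in wild-type), and of the exporters Abcg1 was far above Abca1 (84.8 and 0.605 RPKM in Brpf1-null, 45.8 and 0.503 RPKM in wild-type). Abcg4, a paralog of Abcg1, was at 0.447 RPKM in Brpf1-null and 1.25 RPKM in wild-type, 2.79-fold lower (1.92 to 4.08).

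Several lipid genes best known from liver, fat or muscle were low. Elovl3, Thrsp and Cpt1b were listed at 0 in both libraries, Acacb was listed at 0 in Brpf1-null and at 0.00498 RPKM in wild-type, and Mlxipl, a carbohydrate-responsive factor of liver, was at 0.0284 RPKM in Brpf1-null and 0.134 RPKM in wild-type. Cyp7b1, an oxysterol hydroxylase, was at 0.374 RPKM in Brpf1-null and 1.39 RPKM in wild-type, 3.71-fold lower (2.19 to 6.61). Vldlr, a lipoprotein receptor, was at 0.0109 RPKM in Brpf1-null and 0.221 RPKM in wild-type, on about 2 and 42 reads, a ratio of 20.2 with a counting interval of 5.14 to 168. Other genes below the filter went the other way. Lrp1 was at 1.25 RPKM in Brpf1-null and 0.588 RPKM in wild-type, 2.13-fold higher (1.80 to 2.53). Ch25h was at 0.433 RPKM in Brpf1-null and 0.125 RPKM in wild-type, 3.46-fold higher (1.07 to 14.6) on about 13 and 4 reads.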
